A study of Mus musculus with 6 samples.

Results

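The collagen chain genes encode the alpha chains of the collagens, the proteins that make up most of the fibres and sheets of the extracellular matrix. Members were chosen by symbol alone, as every gene in the count table whose name is Col, a number, a and a number, which gave 44 of 53465 genes. Of the 44 genes, 24 passed a filter on low counts and were tested and 20 were not. By the structure their chains build, 11 genes belonged to the fibrillar collagens, 9 to the basement membrane collagens, 6 to the beaded filament collagen VI, 9 to the fibril-associated collagens, 3 to the short-chain collagens, 4 to the transmembrane collagens and 2 to none of these classes.

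Collagen chains wind around each other into a helix of fixed composition, and many of these helices need chains from more than 1 gene. Fibrillar collagens I, II, III, V and XI form the ropes that bear tension, collagen IV forms the net of basement membranes under epithelia and around vessels, and collagens XV and XVIII lie beside it. In liver most fibrillar collagen is made by activated stellate cells and fibroblasts, collagen IV also comes from endothelial and bile duct cells, and collagen II with its partner collagen XI is best known from cartilage.

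RNA was sequenced from 6 mouse liver cancer cell lines of strain C57BL/6, each from the tumour of a different mouse, in 2 groups of 3. The Myc_Utx group (lines 2A, 2B and 2D) came from KDM6A-deficient tumours and the Myc_p53 group (lines 1, 2 and 3) served as the reference. The tumours of both groups were raised in adult female mice by hydrodynamic tail vein injection of a Myc transposon together with Cas9 and a guide RNA, which was against Kdm6a in the Myc_Utx group. Both groups therefore carry Myc, neither is normal liver, and the effects of the 2 genotypes cannot be told apart in a difference between them. The tumours were digested with collagenase and dispase, and the cells were grown on collagen-coated plates and passaged until no other cells were seen.

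Values are given in the order 2A, 2B, 2D for the Myc_Utx lines and 1, 2, 3 for the Myc_p53 lines. The lines had 4656103 to 6937497 counts on genes. Kdm6a mRNA was at 39.7, 45.7 and 49.0 CPM (counts scaled to the size of the library) in the Myc_Utx lines and 69.5, 64.5 and 42.5 CPM in the Myc_p53 lines, and the groups overlapped; a small edit by Cas9 need not remove an mRNA. Against the label of liver tumour cells, hepatocyte markers were low (Alb, serum albumin, had 4 to 26 counts per line), and their sums were 3.34 to 9.74 CPM in Myc_Utx and 23.7 to 75.7 CPM in Myc_p53, with 3 of 11 lower and 1 higher in every Myc_Utx line. Bile duct markers summed to 522 to 1389 CPM in Myc_Utx and 148 to 1543 CPM in Myc_p53, a sum carried by Spp1 (osteopontin), while 2 of 7, the keratins Krt7 and Krt19, were lower in every Myc_Utx line and Sctr was at 0. Macrophage markers summed to 2.79 to 5.99 CPM in Myc_Utx and 39.9 to 108 CPM in Myc_p53, with 7 of 10 lower in every Myc_Utx line and Clec4f, the Kupffer cell marker, at 0. Fibroblast and stellate cell markers summed to 181 to 457 CPM in Myc_Utx and 80.3 to 855 CPM in Myc_p53, lowest in Myc_p53 1, with 2 of 15 (Dcn and Fbln2) lower and 0 higher in every Myc_Utx line and Lrat and Mfap4 at 0 in all lines. Endothelial markers summed to 17.2 to 21.8 CPM in Myc_Utx and 7.70 to 16.8 CPM in Myc_p53, most of it from Egfl7. Of these markers, 1 of 10 (Egfl7) was higher and 0 were lower in every Myc_Utx line. No other endothelial marker exceeded 7 counts in any line, and Emcn and Clec4g were at 0. For scale, 20.9% of all genes tested were lower and 21.1% higher in every Myc_Utx line. The marker counts also include genes that did not pass the filter on low counts, such as Krt7 and Dcn. In bulk RNA, fewer cells of a type and less RNA per cell cannot be told apart, and the part of these markers in the results was not tested.

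Promoter sequence is shown for 3 genes whose groups differed below: Col11a1, which was higher in Myc_Utx, and Col4a5 and Col4a6, neighbours that start 1343 bases apart on opposite strands of chromosome X and were both lower. Sequences are from RefSeq (GRCm38.p6), end before the annotated exons, read 5′ to 3′ on the strand of the gene, and have in capitals every match on either strand to the TATA box letters TATAAA, to the CCAAT box (ATTGG on the opposite strand) and to the GC box letters GGGCGG, which read CCGCCC on the opposite strand. The Col11a1 window is chr3:114030290-114030539 on the plus strand, that of Col4a5 is chrX:141475169-141475384 on the plus strand and that of Col4a6 is chrX:141474077-141474326 on the minus strand.
Col11a1: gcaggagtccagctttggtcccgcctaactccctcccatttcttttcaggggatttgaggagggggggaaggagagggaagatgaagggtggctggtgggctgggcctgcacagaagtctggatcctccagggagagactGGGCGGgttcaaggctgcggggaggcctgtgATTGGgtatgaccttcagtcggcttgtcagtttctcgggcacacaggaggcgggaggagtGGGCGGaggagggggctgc
Col4a5: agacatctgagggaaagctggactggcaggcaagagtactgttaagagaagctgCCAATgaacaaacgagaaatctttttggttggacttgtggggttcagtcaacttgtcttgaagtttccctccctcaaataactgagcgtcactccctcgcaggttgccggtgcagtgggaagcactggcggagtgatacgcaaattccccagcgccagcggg
Col4a6: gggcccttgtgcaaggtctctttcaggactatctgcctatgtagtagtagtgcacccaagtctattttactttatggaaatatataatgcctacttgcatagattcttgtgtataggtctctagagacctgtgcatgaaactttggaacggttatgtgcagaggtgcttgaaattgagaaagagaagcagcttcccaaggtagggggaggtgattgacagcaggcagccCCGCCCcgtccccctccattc
Col11a1 had GGGCGG beginning 110 and 19 bases before its start site and ATTGG at 79, Col4a5 had 1 CCAAT at 196, and Col4a6 had 1 CCGCCC at 21. The bases were 62.4% G or C for Col11a1, 52.31% for Col4a5 and 47.6% for Col4a6. The median was 52.4% in the 250 bases before the start site of the 32851 RefSeq promoter windows. These windows run from 250 bases before to 50 after a start site. None of the 3 sequences held TATAAA. Windows were found for 35 of the 44 genes, 38 windows in all. GGGCGG was in 23 of these 38 (60.53%) and in 35.66% of all windows, CCAAT in 13 (34.21%) against 37.41%, and TATAAA in 5 (13.16%) against 13.62%. A match is a description of the letters and not a binding site.

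Col2a1 and Col11a1, the chains of the cartilage collagens II and XI, were higher in the Myc_Utx lines, and Col4a5 and Col4a6, minor chains of basement membrane collagen IV, and Col14a1, a collagen of the fibril surface, were lower. These 5 were the genes that passed the threshold of an adjusted p of 0.05 in edgeR's quasi-likelihood test, in which p-values were adjusted by Benjamini-Hochberg over all 11510 genes tested. The 2 higher genes are 8.33% of the 24 collagen genes tested, where 6.99% of all genes were called higher, and the 3 lower genes are 12.5%, where 7.69% of all genes were called lower, so the collagen genes as a whole were called at about the rate of other genes. With total counts alone in place of TMM normalization, 601 genes were called higher and 1009 lower in place of 805 and 885, and the 5 collagen genes stayed called. Of the 5, only Col4a5 had at least 10 counts in every line. The others passed the filter on low counts through the group where they were high. A further 4 genes stood apart in every line without passing the threshold: Col6a3 higher, and Col4a1, Col4a2 and Col8a1 lower. Groups without overlap were thus found for 3 genes higher (12.5%, against 21.1% of all genes) and 6 lower (25.0%, against 20.9%). The median log2 fold change (Myc_Utx minus Myc_p53) of the 24 genes was 0.23 and that of all genes -0.01. The single genes were estimated with little precision, since the median standard error was 1.004 for the collagen genes and 0.23 for all genes. An unadjusted edgeR p under 0.05 was found for 9 of the 24 collagen genes and for 4026 of all 11510 genes, a similar share.

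**Figure D1:**
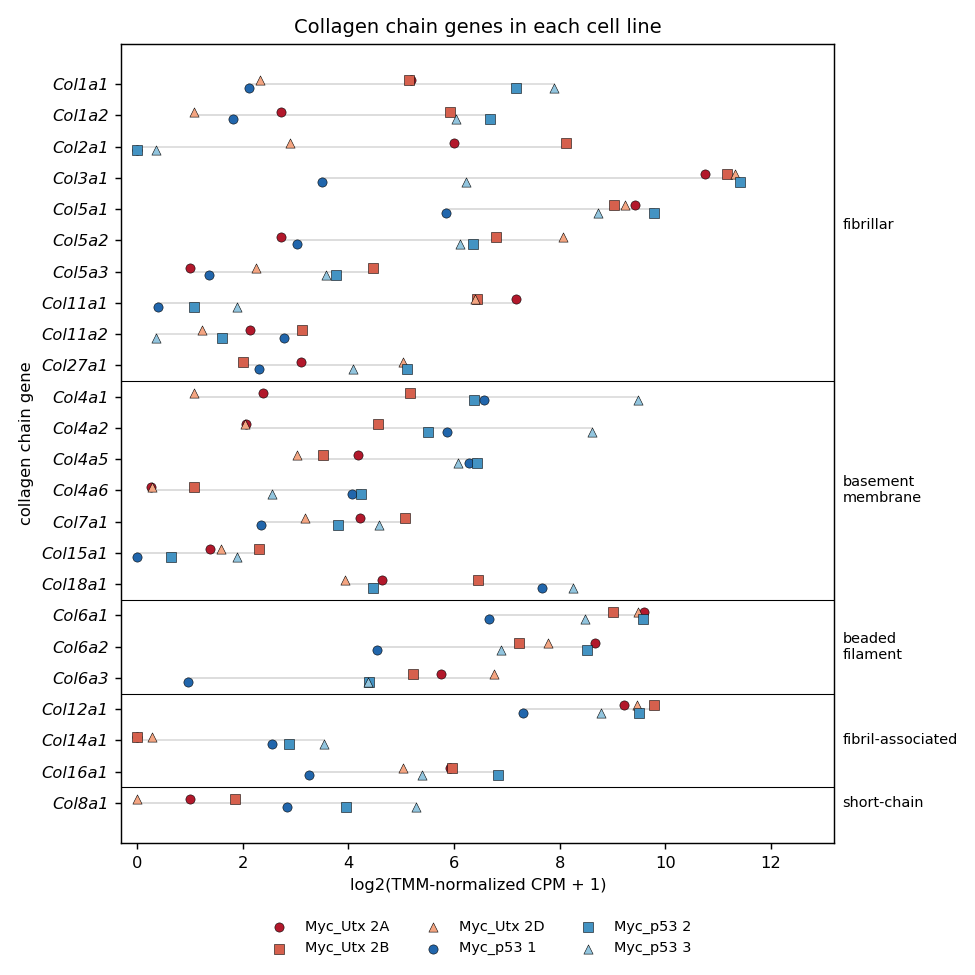
Level of each of the 24 tested collagen chain genes in each cell line, as log2 of TMM-normalized CPM plus 1 (x axis), with genes grouped by class (y axis), 1 point per line (red, Myc_Utx; blue, Myc_p53) and a grey line from the lowest to the highest line. Col2a1 and Col11a1 have the red points on the right, Col4a1, Col4a2, Col4a5 and Col4a6 have the blue points on the right, and Myc_p53 1 is the lowest line for 12 of the 24 genes and the highest for 0.

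Of the 11 fibrillar collagen genes, 10 were tested, 2 were called higher (20%, against 6.99% of all genes) and 0 lower, and the median log2 fold change was 0.51. Both called genes passed the filter on low counts through the Myc_Utx lines, so this share is not an unbiased rate. Col2a1 (chromosome 15, 97975602 to 98004695, GRCm38), the chain of collagen II, had 315, 1487 and 29 counts in the Myc_Utx lines and 0, 0 and 2 counts in the Myc_p53 lines, or 62.8, 278 and 6.46 CPM against 0, 0 and 0.285 CPM. The groups did not overlap, yet the 3 Myc_Utx lines were 43.1-fold apart from lowest to highest, with 2B at the top. The 1831 counts of the Myc_Utx lines against 2 in the Myc_p53 lines are a ratio of 1155 in CPM (95% interval 319 to 9548, counting error only), and the edgeR adjusted p was 0.0274.

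Col11a1 (chromosome 3, 114030540 to 114220718), the first chain of collagen XI, which sits in the core of collagen II fibrils, was at 142, 85.2 and 83.3 CPM in Myc_Utx and 0.316, 1.11 and 2.71 CPM in Myc_p53. Here the Myc_Utx lines lay close together (1.71-fold from lowest to highest) and all were far above the Myc_p53 lines, whose highest count was 19. The means were 104 ± 33.6 and 1.38 ± 1.22 CPM (SD, n = 3), with a log2 fold change of 6.17 with SE 0.63 and an edgeR adjusted p of 0.0123. Col11a2, the second chain of collagen XI, did not follow, with 3.39, 7.68 and 1.34 CPM and 5.85, 2.04 and 0.285 CPM and overlapping groups (log2 fold change 0.61 with SE 1.003, edgeR adjusted p 0.693).

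Collagen II in cartilage is made beside collagen IX, aggrecan and link protein under the factor SOX9, and these partners were mostly at low counts. Col9a1 had 2, 11 and 3 counts in Myc_Utx and 1, 0 and 0 in Myc_p53 and Col9a3 had 2, 3 and 2 and 1, 1 and 1, both with higher CPM in every Myc_Utx line, but neither passed the filter on low counts, and Col9a2 had 1 count in a single line. Of 12 cartilage genes in the table, 3 were tested, 0 were called and 0 had groups without overlap, and Matn1 and Epyc were at 0 in all lines. Sox9 was at 40.5, 74.1 and 32.5 CPM and 35.1, 20.6 and 20.96 CPM, overlapping (log2 fold change 0.94 with SE 0.37, edgeR adjusted p 0.131), and Hapln1, which encodes link protein, had 35 counts in line 2B, where Col2a1 was highest, and 0 to 2 in the others. Sox9 and Hapln1 were singled out after their values were seen, and other genes of the list were highest in Myc_p53 2. Acan, which encodes aggrecan, had 1, 12 and 0 counts in Myc_Utx and 0, 34 and 6 in Myc_p53. Comp had 7, 1 and 0 against 1, 12 and 1 counts, and Chad 0, 2 and 1 against 1, 12 and 10. None of Acan, Comp and Chad was tested.

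Col3a1, the chain of collagen III, was the collagen mRNA with the highest mean level per transcript length and was not called. It was at 1730.5, 2301 and 2558 CPM in the Myc_Utx lines and at 10.3, 2721 and 73.9 CPM in the Myc_p53 lines, so that Myc_p53 2 was the highest of the 6 lines while the other two Myc_p53 lines were low. The Myc_p53 lines were 264.9-fold apart and the Myc_Utx lines 1.48-fold, and the log2 fold change was 1.23 with SE 1.62 with an edgeR adjusted p of 0.62. Without line Myc_p53 2 the log2 fold change was 5.71 and the edgeR adjusted p 0.0230. Without each of the other lines in turn it was 0.64 to 1.39, with edgeR adjusted p of 0.661 to 0.812.

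Col5a1, the main chain of collagen V, which sets fibril width, was at 689, 518 and 605 CPM and 56.4, 879 and 423 CPM, with Myc_p53 2 highest and Myc_p53 1 lowest (log2 fold change 0.42 with SE 0.81, edgeR adjusted p 0.739). Its direction was not settled, since the log2 fold change was -0.12 without Myc_p53 1. The chains of collagen I, the main collagen of scar and bone, had overlapping groups too. Col1a1 was at 35.3, 34.5 and 4.01 CPM and 3.32, 144 and 236 CPM (edgeR adjusted p 0.251), and Col1a2 at 5.58, 59.7 and 1.11 CPM and 2.53, 102 and 65.0 CPM (edgeR adjusted p 0.559). Both were low in Myc_Utx 2D and Myc_p53 1 and high in Myc_p53 2 and 3. The other four tested fibrillar genes, Col5a2, Col5a3, Col11a2 and Col27a1, had log2 fold changes from -0.34 to 1.29 with overlapping groups, and Col5a2 varied 48.0-fold among the Myc_Utx lines alone.

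Of the 9 basement membrane collagen genes, 7 were tested, 2 were called lower (28.6%, against 7.69% of all genes) and 0 higher, 4 were lower in every Myc_Utx line than in every Myc_p53 line (57.1%, against 20.9%), and the median log2 fold change was -2.71. Of the 2 called, Col4a6 passed the filter on low counts through the Myc_p53 lines, so these shares are not unbiased rates. Col4a5 (chromosome X, 141475385 to 141689234) was at 17.2, 10.5 and 7.13 CPM in Myc_Utx and 76.6, 86.0 and 66.4 CPM in Myc_p53. Within each group the lines stayed together, 2.41-fold apart in Myc_Utx and 1.29-fold in Myc_p53, and the groups were far from overlapping. The means were 11.6 ± 5.10 and 76.4 ± 9.78 CPM (SD, n = 3), a 6.59-fold lower level in Myc_Utx, with a log2 fold change of -2.71 with SE 0.33 and an edgeR adjusted p of 0.0141; its standard error was the smallest of the 24 genes.

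Col4a6 (chromosome X, 141165403 to 141474076), which stands head to head with Col4a5 and whose chain joins that of Col4a5 in 1 form of collagen IV, had 1, 6 and 1 counts in Myc_Utx and 100, 96 and 34 counts in Myc_p53. Every Myc_Utx line was at a few counts or below, that is at 0.199, 1.12 and 0.223 CPM, against 15.8, 17.8 and 4.85 CPM in Myc_p53. The log2 fold change was -4.54 with SE 0.81 with an edgeR adjusted p of 0.0227. Per kilobase of transcript, Col4a5 was 5.74 to 102.1 times the level of Col4a6 in the 6 lines, with the ratio of the Myc_Utx lines resting on 1 to 6 counts of Col4a6.

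Col4a1 and Col4a2 on chromosome 8 encode the common chains of collagen IV, present in every basement membrane, and had lower values in every Myc_Utx line without passing the threshold. Col4a1 was at 4.19, 34.8 and 1.11 CPM in Myc_Utx and 93.4, 81.7 and 714 CPM in Myc_p53 (log2 fold change -4.45 with SE 1.42, edgeR adjusted p 0.0792). Col4a2 was at 3.19, 22.7 and 3.12 CPM and 57.4, 44.3 and 389 CPM (log2 fold change -4.06 with SE 1.21, edgeR adjusted p 0.0673). Line 2B stood above 2A and 2D and line Myc_p53 3 above 1 and 2 for both genes. The log2 fold changes moved with these lines, to -2.70 for Col4a1 and -2.39 for Col4a2 without Myc_p53 3 and to -6.75 and -5.67 without 2B. Per kilobase, Col4a1 was 1.16, 1.36 and 0.317 times Col4a2 in Myc_Utx and 1.44, 1.64 and 1.63 times in Myc_p53, so the pair kept nearly the same proportion in 5 lines, and the value of line 2D rests on 5 and 14 counts. The genes overlap by 22 bases at their starts, and whether the counting used strand is not given in the sources used here.

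The third collagen IV pair, Col4a3 and Col4a4, known from the kidney filter, had up to 6 and 20 counts per line and was not tested. Col18a1, whose chain yields endostatin, was at 23.7, 86.9 and 14.3 CPM and 203, 21.1 and 306 CPM with overlapping groups, since Myc_p53 2 was below the Myc_Utx lines 2A and 2B (log2 fold change -2.08 with SE 1.03, edgeR adjusted p 0.202). It overlaps Slc19a1 on the opposite strand, which had up to 737 counts. Col7a1, the chain of anchoring fibrils, and Col15a1 had log2 fold changes of 0.55 with SE 0.71 and 1.16 with SE 1.05 and overlapping groups.

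**Figure D2:**
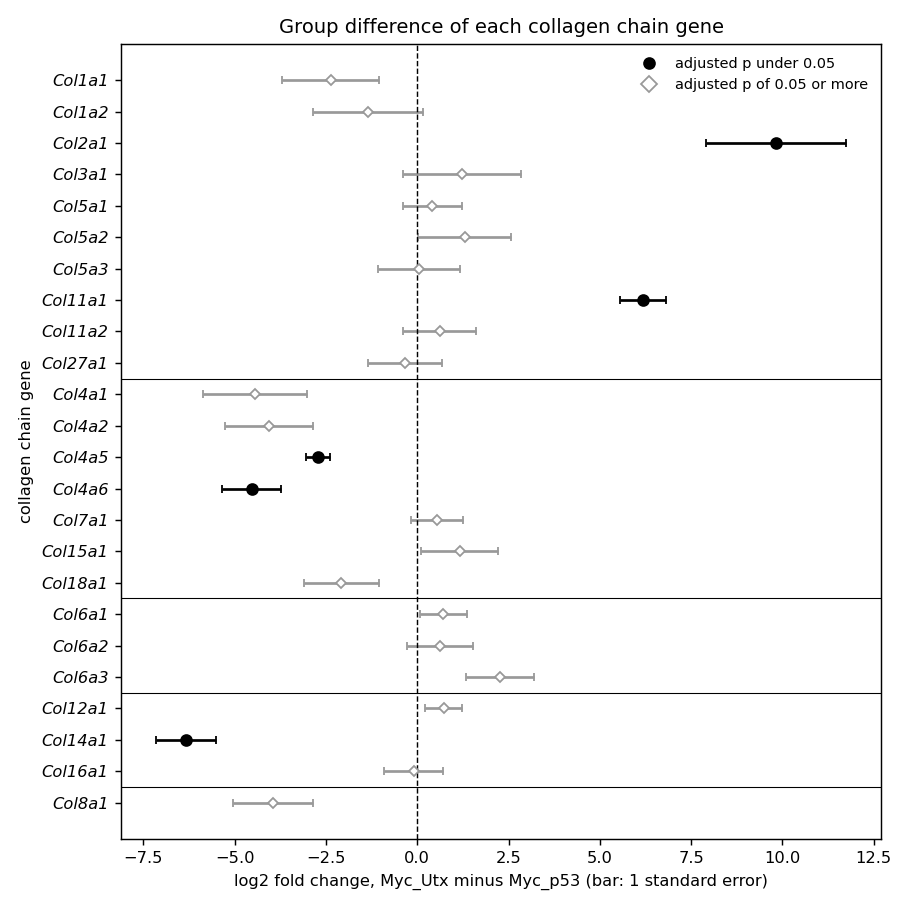
Log2 fold change between the groups, Myc_Utx minus Myc_p53, of the 24 tested collagen chain genes (x axis) with bars of 1 standard error from edgeR, in the class order of the plot of levels (y axis). The 5 filled points have an adjusted p under 0.05, and of the open points Col4a1, Col4a2 and Col8a1 lie farther to the left than the called Col4a5, with longer bars.

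Collagen VI, which forms fine filaments around cells, is built from Col6a1, Col6a2 and a longer chain such as that of Col6a3, and of its 6 genes 3 were tested and 0 called. Col6a3 was at 53.0, 36.3 and 108 CPM in Myc_Utx and 0.948, 20.02 and 19.8 CPM in Myc_p53, higher in every Myc_Utx line (log2 fold change 2.27 with SE 0.93, edgeR adjusted p 0.14). Col6a1 was at 768, 512 and 717 CPM and 101, 767 and 357 CPM and Col6a2 at 407, 148 and 218 CPM and 22.4, 364 and 117 CPM, both with overlapping groups. Both were lowest in Myc_p53 1, and their log2 fold changes were 0.71 with SE 0.65 and 0.62 with SE 0.89, with edgeR adjusted p of 0.471 and 0.654. Per kilobase, Col6a1 was 3.58 to 8.54 times Col6a2 in the 6 lines. Of the chains that can take the place of Col6a3, Col6a4 and Col6a6 did not exceed 1 count in any line and Col6a5 had 0, 0 and 0 counts in Myc_Utx and 2, 19 and 8 in Myc_p53.

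Col14a1 (chromosome 15, 55307750 to 55520803), whose chain lies on the surface of collagen I fibrils, had 0, 0 and 1 counts in Myc_Utx and 31, 34 and 74 counts in Myc_p53. The groups did not overlap and the Myc_p53 lines were 2.15-fold apart, at 4.90, 6.30 and 10.6 CPM. The 139 counts of the Myc_p53 lines against 1 in the Myc_Utx lines are a ratio of 110.1 in CPM (95% interval 19.4 to 4381, counting error only), and the edgeR adjusted p was 0.0163. Col12a1, its relative and the fourth gene by level per length, was at 592, 883 and 707 CPM and 157, 719 and 442 CPM with overlapping groups (log2 fold change 0.73 with SE 0.51, edgeR adjusted p 0.344), and Col16a1 had a log2 fold change of -0.09 with SE 0.81. Col8a1, a short-chain collagen of vessel walls, had 5, 14 and 0 counts in Myc_Utx and 39, 78 and 267 counts in Myc_p53, lower in every Myc_Utx line, with a log2 fold change of -3.96 with SE 1.09 and an edgeR adjusted p of 0.0568.

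Several of the markers given above were lower in Myc_Utx, as the lower collagen genes were. Among the Myc_p53 lines, the summed macrophage and hepatocyte markers were lowest in Myc_p53 2 and highest in Myc_p53 3. Col14a1, Col4a1, Col4a2 and Col8a1 were highest in Myc_p53 3. Col4a5 and Col4a6 were highest in Myc_p53 2, by little over Myc_p53 1 (86.0 and 76.6 CPM for Col4a5, 17.8 and 15.8 CPM for Col4a6). The order of these 3 lines was not tested. The summed levels of the macrophage and hepatocyte markers were lower in every Myc_Utx line. Of the 6 macrophage markers tested, 5 were called lower (83.3%, against 7.69% of all genes), namely Csf1r, Lyz2, C1qa, C1qb and C1qc. These 5 had 0 to 5 counts per Myc_Utx line and passed the filter on low counts only through the Myc_p53 lines. Their share is therefore not an unbiased rate. Of the 2 hepatocyte markers tested, 1 was called lower, Apob, with 0, 6 and 1 counts in Myc_Utx and 88, 71 and 378 in Myc_p53. Apob carried much of the hepatocyte sum, at 53.9 of 75.7 CPM in Myc_p53 3. Alb, the other tested marker, was not called (log2 fold change 0.52 with SE 0.61, edgeR adjusted p 0.578). Apoa1, not tested, was higher in every Myc_Utx line, at 3, 5 and 3 counts against 0, 1 and 2. Of the bile duct markers, Krt19 was at 46.7, 4.68 and 28.7 CPM in Myc_Utx and 330.0, 60.2 and 352 CPM in Myc_p53 (edgeR adjusted p 0.0653), and Krt7 had 1, 0 and 2 counts and 100, 3 and 459 counts. Of the 7 fibroblast and stellate cell markers tested, 1 was called lower, the matrix gene Fbln2 (log2 fold change -4.86 with SE 0.96, edgeR adjusted p 0.0274), and the other six had overlapping groups, Pdgfrb and Ecm1 with log2 fold changes above 0 (0.997 and 0.61). The part of any of these cells in the lower collagen genes was not tested.

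The calls depended on single lines by their adjusted p more than by their fold changes. With 1 line left out, the log2 fold change was 5.70 to 7.18 for Col11a1, 8.11 to 12.27 for Col2a1, -3.09 to -2.45 for Col4a5, -5.77 to -4.15 for Col4a6 and -8.40 to -5.81 for Col14a1. Calls over all genes, 805 higher and 885 lower with every line in the fit, dropped to 43 higher and 38 lower when 2B was left out, to 43 higher and 28 lower when 2D was, and to 63 higher and 57 lower when Myc_p53 3 was. Without line 2A all 5 were lost, with adjusted p of 0.0614 for Col11a1, 0.0716 for Col2a1, 0.0518 for Col4a5, 0.0805 for Col4a6 and 0.0630 for Col14a1 in edgeR, but that fit called only 3 genes higher and 1 lower of 12064. Col11a1 remained called without each of the other five lines. Without 2B, Col2a1 (0.0614), Col4a5 and Col4a6 (0.0580 each) and Col14a1 (0.0613) were lost in edgeR, and without Myc_p53 3 these 4 were lost as well, at 0.116 for Col2a1, 0.05001 (just above the threshold) for Col4a5, 0.0529 for Col4a6 and 0.0530 for Col14a1. Without 2D, Col4a6 (0.0911) and Col14a1 (0.0606) were lost, and Col2a1 was lost without Myc_p53 1 (0.0697) and without Myc_p53 2 (0.0561), again by edgeR adjusted p. The direction of all 5 stayed the same in every one of these fits.

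The 20 genes that did not pass the filter on low counts included Col19a1 and Col13a1, which were at 0 in every line. A further 11 (Col6a4, Col6a6, Col9a2, Col9a3, Col22a1, Col10a1, Col17a1, Col23a1, Col25a1, Col26a1 and Col28a1) had 1 to 3 counts in their highest line, too few to compare the groups. Of these, Col9a3 alone had counts in all 6 lines. Col24a1, Col4a3 and Col20a1 reached 4 to 9 counts in some line. Col4a4, Col6a5, Col9a1 and Col8a2 reached 10 or more in a single line. Col8a2, the partner chain of Col8a1, had 1, 1 and 0 counts in Myc_Utx and 1, 36 and 2 in Myc_p53, so it stood out in Myc_p53 2 alone. None of the 4 transmembrane collagen genes was tested.

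The make-up of the collagen mRNA, that is which collagens each line expressed most, was compared on levels per kilobase of transcript so that genes could be compared. Collagen genes took 0.456, 0.513 and 0.519% of the counts in Myc_Utx and 0.0874, 0.629 and 0.347% in Myc_p53. The summed level was 573, 607 and 626 CPM per kilobase in Myc_Utx (602 ± 27.2, SD, n = 3) and 114, 752 and 462 in Myc_p53 (443 ± 319), so the Myc_Utx lines were alike and lay within the span of the Myc_p53 lines.

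Fibrillar genes made up 50.1, 61.7 and 59.3% of the summed level in Myc_Utx and 9.26, 56.4 and 23.6% in Myc_p53. Basement membrane genes made up 1.57, 4.29 and 0.775% in Myc_Utx and 56.1, 4.94 and 45.8% in Myc_p53, a set of shares that did not overlap although Myc_p53 2 was close to Myc_Utx 2B. In level, the basement membrane genes summed to 8.98, 26.02 and 4.86 CPM per kilobase in Myc_Utx and 64.0, 37.1 and 211 in Myc_p53. Beaded filament genes held 21.1 to 39.9% and fibril-associated genes 7.96 to 11.2% of the summed level in the 6 lines. Col3a1, Col6a1 and Col5a1 led, in that order, in each Myc_Utx line and in Myc_p53 2. In Myc_p53 1 the leading genes were Col18a1, Col6a1 and Col4a1, and in Myc_p53 3 they were Col4a1, Col6a1 and Col4a2. These shares sum to 100 in each line, so a low Col3a1 raises the shares of all others. Myc_p53 2 resembled the Myc_Utx lines in its leading genes. Its Col4a5, Col4a6 and Col14a1 were higher than in every Myc_Utx line, which holds for all Myc_p53 lines because these genes had groups without overlap.

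**Figure D3:**
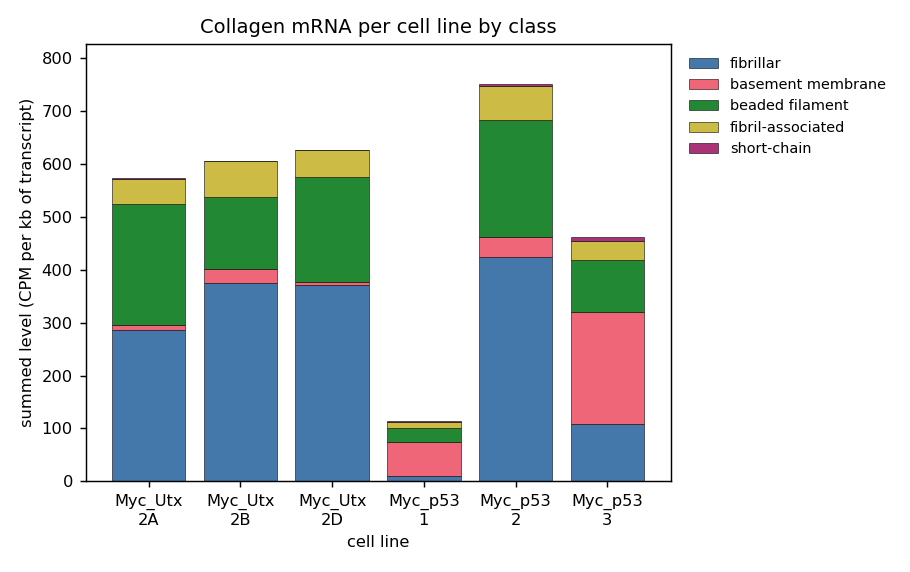
Summed level of the collagen chain genes in each cell line, in CPM per kilobase of transcript (y axis, from 0), with bars divided by collagen class and 1 bar per line (x axis). Basement membrane genes are a thin band in the Myc_Utx lines and Myc_p53 2 and the largest band in Myc_p53 1 and 3, and the whole bar of Myc_p53 1 is the lowest, at 114.

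The genes that modify, fold, cross-link, bind and degrade collagen chains were described next. Of 63 such genes in 5 lists, 62 were in the table and 47 tested, of which 1 (2.13%) was called higher and 4 (8.51%) lower, against the 6.99 and 7.69% of all genes. Cross-linking held 3 of the 4 lower genes, where 9 genes of propeptide removal and cross-linking were tested. Of these, Loxl2 and Pxdn passed the filter on low counts through the Myc_p53 lines, where they were high. Loxl2, a lysyl oxidase that cross-links collagen IV, had 0, 11 and 0 counts in Myc_Utx and 241, 357 and 1256 counts in Myc_p53 (log2 fold change -6.98 with SE 1.17, edgeR adjusted p 0.0196). Pxdn, the peroxidase that forms the sulfilimine bond of collagen IV, had 9, 3 and 0 counts and 83, 768 and 78 counts (log2 fold change -6.07 with SE 1.49, edgeR adjusted p 0.0441). The groups did not overlap for either gene, and Myc_p53 2 was far above the other Myc_p53 lines for Pxdn.

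Loxl1, a lysyl oxidase best known from elastic fibres, was at 2.59, 29.8 and 2.23 CPM and 181, 225 and 139.7 CPM (log2 fold change -3.96 with SE 0.97, edgeR adjusted p 0.0446). P3h2, a prolyl 3-hydroxylase that acts on collagen IV, was the 1 lower gene among 14 tested genes of chain hydroxylation and glycosylation, at 26.9, 24.0 and 14.3 CPM and 68.9, 82.1 and 57.0 CPM (log2 fold change -1.67 with SE 0.28, edgeR adjusted p 0.019). The lines of each group were alike for P3h2, with no overlap. The higher gene was Timp1, an inhibitor of the collagen-degrading metalloproteinases and 1 of 8 degradation genes tested, at 59.0, 61.2 and 58.3 CPM in Myc_Utx and 7.59, 20.2 and 21.2 CPM in Myc_p53 (log2 fold change 1.86 with SE 0.38, edgeR adjusted p 0.0288). Of 11 genes of folding and export and 5 collagen receptors tested, 0 were called. Among the 5 receptors tested, Ddr1 and Itga1 were lower in every Myc_Utx line without passing the threshold (40%, against 20.9% of all genes). Ddr1, a receptor tyrosine kinase for collagen, was at 86.0, 103 and 67.3 CPM and 219, 115 and 181 CPM (edgeR adjusted p 0.0537). Itga1 was at 7.38, 0.749 and 1.78 CPM and 35.7, 7.78 and 24.0 CPM (log2 fold change -2.76 with SE 0.90, edgeR adjusted p 0.0853). All 5 calls were lost in edgeR without line 2A, 2D or Myc_p53 3 (adjusted p from 0.0553 to 0.135), Loxl1 alone remained without 2B (0.0173), and Loxl1 was lost without Myc_p53 1 (0.0772) or Myc_p53 2 (0.0640). With a correction for transcript length, Timp1 (0.0539) and Pxdn (0.0531) no longer passed in edgeR by adjusted p, at log2 fold changes of 1.56 and -5.86.

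**Figure D4:**
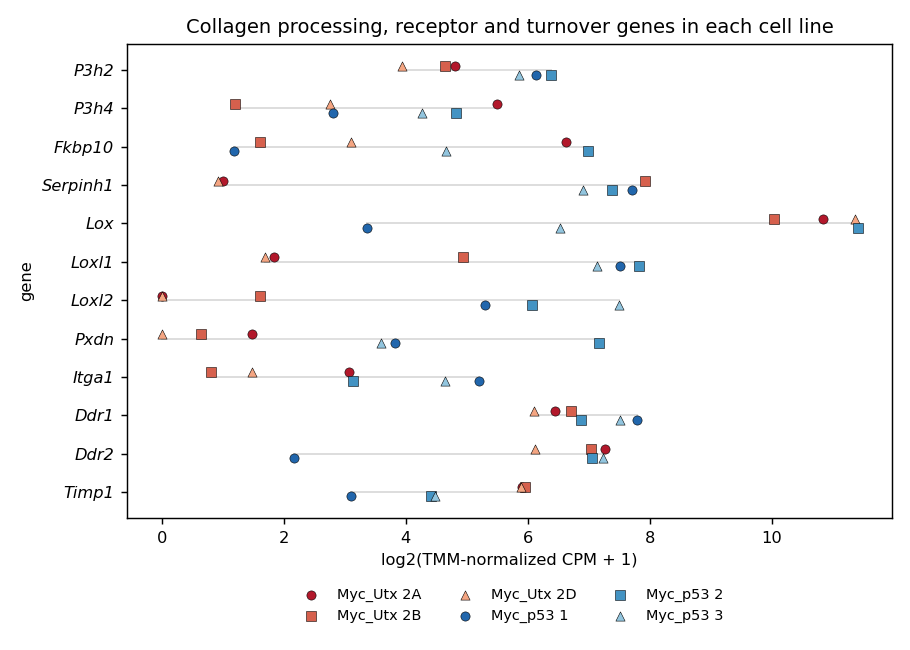
Level of 12 genes of collagen hydroxylation, folding, cross-linking, binding and turnover in each cell line, as log2 of TMM-normalized CPM plus 1 (x axis), 1 row per gene and 1 point per line (red, Myc_Utx; blue, Myc_p53). P3h2, Loxl1, Loxl2 and Pxdn have every blue point to the right of every red one and Timp1 the reverse, while the points of Lox, Serpinh1 and Ddr2 are mixed and widely spread.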

How the data were processed

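Counts of reads per gene, as whole numbers, were deposited by the authors for 6 cell lines in 1 table with gene starts, ends and transcript lengths. Per the submitters' processing notes, Trimmomatic 0.36, STAR 2.5.3a, featureCounts 1.6.3 and DESeq2 1.20.0 were used with GRCm38; the published methods name HTSeq and a human build instead, but the starts and ends of all 44 collagen genes equal GENCODE M21 on GRCm38. Lines were grouped by genotype label. The guide target of the Myc_p53 group is not reported here. All genes were fitted in edgeR 4.0.16 (R 4.3.3; TMM normalization, filterByExpr with a minimum count of 10 and total of 15, quasi-likelihood F test, Benjamini-Hochberg adjustment, threshold 0.05), with the 3 Myc_Utx lines against the 3 Myc_p53 lines and no covariate; the code was tested on simulated data. CPM are TMM-normalized, and levels between genes were compared per kilobase of the deposited transcript length. Depth was 4656103 to 6937497 counts, so that 3 counts are 0.428 to 0.668 CPM. Intervals of count ratios are exact at 95% and cover counting error only. With 3 lines per group, the smallest two-sided exact permutation p is 0.1 for a single gene, so no such test was used.

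The members and gene lists were chosen with earlier results of these data known. Collagen genes are named with all values where the adjusted p was under 0.05, where the groups did not overlap and the fold was at least 2, or for the 6 highest levels per length; of the other lists, all called genes are named. Genes that overlap a collagen gene and exceed 3 counts were found for 4 of the 24 tested genes (Col5a1, Col4a1, Col4a2 and Col18a1), and the strand setting is not given in the sources used here. Promoter sequences are from RefSeq. Alternatives were DESeq2 size factors, total counts alone, no filter, at least 10 counts in every line, DESeq2 1.42.0, per-line offsets fitted on transcript length (spline with 5 degrees of freedom), and leaving out each line in turn.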

Additional observations from a re-analysis of the deposited data

How the results depend on the processing

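In fits of all 6 lines, the 5 collagen calls were made with DESeq2 size factors, with total counts alone and with length offsets, and the counts of 2 higher and 3 lower did not change. Without a filter on low counts, 6 collagen genes were called lower (Col4a1, Col4a2 and Col8a1 in addition), and DESeq2 called 3 higher and 6 lower (Col6a3 higher, and Col4a2, Col8a1 and Col6a5 lower in addition). A minimum of 10 counts in every line left 13 collagen genes, of which 0 were called higher and 1 lower (Col4a5), since the other four called genes were not in that fit; 2 had an unadjusted p under 0.05. Leaving out 1 line, 0 to 2 collagen genes were called higher and 0 to 3 lower. The 0 calls without line 2A compare with 7 collagen genes at an unadjusted p under 0.05 in edgeR. With every line in the fit, 9 collagen genes and 4026 of the 11510 genes were under it. The share over all genes was not counted in the other fits. Over all genes, leaving out 1 line gave 3 to 836 higher and 1 to 1118 lower calls, and DESeq2 gave 1270 and 1565. Of the genes that process, bind or degrade collagen, 0 were called higher with length offsets, 9 were called lower by DESeq2 and 6 without a filter, and leaving out 1 line gave 0 to 3 higher and 0 to 5 lower, among them Serpinh1 without 2B and Lox without Myc_p53 2. Of the values of single named genes in fits of all lines, 94 kept their direction and side of the threshold, 6 newly passed it, 2 no longer passed it and 0 reversed. Values were counted only where a fit gave an adjusted p, and DESeq2 gave none for Col3a1, Col4a1 and Pxdn. With 1 line left out, 74 were kept, 1 newly passed (Col3a1), 38 no longer passed and 1 reversed, Col5a1 at -0.12 without Myc_p53 1 (up to 1.34 without Myc_p53 2). Across the 11510 genes the log2 fold change fell with transcript length (Spearman rho -0.25), and the median length was 7242.5 bases for the tested collagen genes and 4441 for all; genes are not independent replicates. No paired analysis was possible because the replicate names of the groups (2A, 2B and 2D against 1, 2 and 3) are not shared. Detection was limited by depth below 3 counts, and single collagen genes by the spread between lines.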

Other observations

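Some genes that collagen-producing cells need differed between lines of 1 group more than between the groups. They were singled out after their values were seen and carry no test beyond the fit across all genes. Serpinh1, the chaperone HSP47 that binds folded collagen chains in the endoplasmic reticulum, had 5, 1283 and 4 counts in Myc_Utx and 1310, 887 and 833 counts in Myc_p53, so lines 2A and 2D held nearly none while 2B and the 3 Myc_p53 lines were at 118.8 to 240.2 CPM (edgeR adjusted p 0.691). Lines 2A and 2D had summed collagen levels of 573 and 626 CPM per kilobase. Fkbp10, another helper of collagen folding and cross-linking, had 487, 11 and 34 counts and 8, 678 and 170 counts, and P3h4, which acts in lysine hydroxylation of collagen, 222, 7 and 26 counts and 38, 148 and 128 counts; in both, 2A was the highest Myc_Utx line.

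Lox, the lysyl oxidase of fibrillar collagen, was at 1815, 1049 and 2632 CPM in Myc_Utx and 9.32, 2706 and 91.5 CPM in Myc_p53, low in Myc_p53 1 and 3 as Col3a1 was (10.3, 2721 and 73.9 CPM in the Myc_p53 lines). Ddr2, a receptor for fibrillar collagen, had 766, 694 and 308 counts and 22, 713 and 1044 counts, with Myc_p53 1 alone low. Mrc2, a receptor that takes up collagen, had 6, 8 and 3 counts and 5, 424 and 68 counts and was not tested; 424 of them were in Myc_p53 2.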
